A study of Mus musculus with 17 samples.

Results

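High-fat feeding of wild-type mice was examined in epididymal adipose tissue, the visceral fat pad beside the epididymis, by comparing the 2 Cpa3+/+ samples on a high-fat diet (HFD) with the 3 Cpa3+/+ samples on a low-fat diet (LFD) across all genes. These 5 samples were chosen by their titles from a series of 17. All mice were of the WBB6F1 background, a cross of WB and C57Bl/6, and Cpa3+/+ carries the unaltered allele of the mast cell protease gene Cpa3. HFD supplied 60% of energy as fat. The control group is titled LFD, while the feeding protocol calls it chow with 6% fat, so the diets may differ in more than fat. Feeding lasted 12 weeks and tissue was collected after a fast of 5 h. RNA was measured on Illumina bead arrays, where each bead type carries an oligonucleotide probe for a transcript, with 1 array per sample. The labels state neither the age of the mice nor whether a sample came from 1 animal, and the tests therefore reflect only how much these samples varied. The other 12 arrays are of Cpa3Cre/+ mice (3 HFD, 3 LFD), in which a Cre knock-in at Cpa3 removes mast cells, and of KitW/Wv mice (3 HFD, 3 LFD), which carry a pair of mutant alleles of the receptor kinase gene Kit. They entered the normalization, the choice of genes and probes, the estimate of the spread and a final comparison of diet effects.

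White fat stores triglyceride in adipocytes, and between them lie vessels, stromal progenitors and immune cells. When the fat pad of an obese mouse expands, macrophages are known to gather around dying adipocytes, take up their lipid and enlarge their lysosomes, and the matrix between the cells is rebuilt. In bulk RNA, fewer cells of a type and less RNA per cell cannot be told apart, and the same holds for more of either.

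The 5 arrays had median intensities of 98.6 to 106.1 before normalization and detected 46.9% to 51.7% of 46237 probes. After normalization, 17166 genes were each represented by the brightest probe that passed a detection filter, and levels below are log2 intensities of that probe, given as HFD arrays 1 and 2, then LFD arrays 1, 2 and 3. Levels of different genes are not comparable. The HFD pair correlated with r = 0.984 across genes, which are not independent replicates, and the 3 pairs of LFD arrays with 0.9385 to 0.9657. Pairs of opposite diet had 0.9368 to 0.9662, so the LFD arrays differed from each other about as much as from the HFD arrays. LFD array 3 stood apart: epididymis and testis markers were 2.24 above the LFD mean there and 0.95 and 1.28 below it in LFD arrays 1 and 2 (mean log2 difference over 9 markers). Adam7, a sperm-maturation gene of the epididymis, was at 4.75 and 5.10 on HFD and 5.00, 5.86 and 12.30 on LFD. Some results are therefore also given without this array. A value given only with all arrays may still depend on it. The adipocyte label was borne out by Adipoq, Fabp4 and Plin1, all detected on all 5 arrays. Cpa3, intact in these mice, was at 8.27 and 8.54 on HFD and 8.21, 7.66 and 7.32 on LFD, and Kit at 7.89 and 7.74 on HFD and 8.14, 7.09 and 8.77 on LFD, and neither passed (adjusted p = 0.195 and 0.864). The Cpa3 probe used gave 0.67 (SE 0.264). A probe nearly as bright gave 0.88 (SE 0.205) and a dimmer one 0.13 (SE 0.244), so the value for Cpa3 depends on the probe.

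On the high-fat diet 590 genes were higher (3.44% of those tested) and 208 lower (1.21%) at a limma adjusted p below 0.05. At an unadjusted p below 0.05 there were 2979 of 17166 genes. Counts of list members at that unadjusted limit are to be read against this share. The 5 arrays did not overlap between the diets in any of the 798 called genes. Over all genes, the HFD arrays lay above the LFD arrays in 17.6% and below them in 15.9%, so separation by itself is common here. Rises were larger: 446 genes rose at least 2-fold and 107 at least 4-fold, against 127 and 20 among the falls. The median log2 fold change over all genes was -0.02, and 90% of genes lay between -0.80 and 0.92. In total 32 genes that rose were detected on no LFD array, and 10 that fell were detected on no HFD array.

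The counts changed with the arrays used. Without HFD array 1 there were 198 higher and 31 lower genes, and without HFD array 2 there were 208 and 35. Without LFD array 1, 2 or 3 the counts were 416 and 129, 491 and 155, and 571 and 290. In each such fit 1 array fewer bears on the comparison, and the single HFD array left is assumed to vary like the other groups. With each of the 5 arrays left out in turn, 147 of the 590 rises and 16 of the 208 falls passed every time. These 163 are called kept in what follows, and "without either HFD array" stands for each of the HFD arrays left out in turn.

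**Figure D1:**
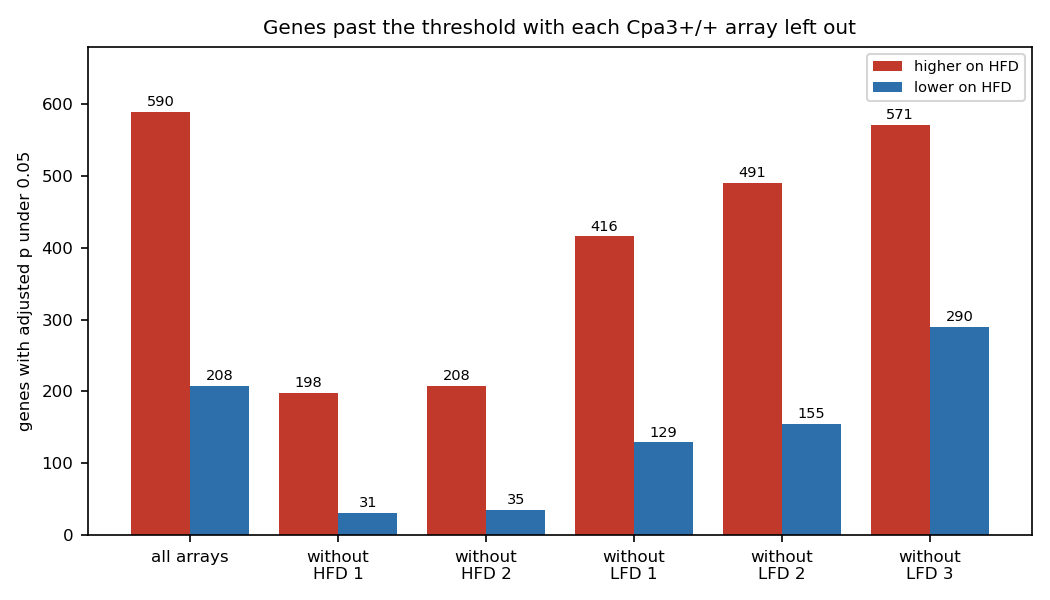
Number of genes with adjusted p below 0.05 (vertical axis) with all arrays and with each Cpa3+/+ array left out, in red for genes higher and in blue for genes lower on the high-fat diet. The count of rises fell from 590 to 198 and 208 without either HFD array, and the count of falls grew from 208 to 290 without LFD array 3.

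The largest rise was that of Tph2, the form of tryptophan hydroxylase that starts serotonin synthesis in neurons, at 11.87 and 12.13 on HFD and 4.76, 5.87 and 4.91 on LFD. Itgad, the alpha-D chain of a leukocyte integrin found on macrophages, was at 9.73 and 10.26 on HFD and 4.19, 4.41 and 5.02 on LFD. Lipf, the gastric lipase, was at 9.98 and 10.20 on HFD and 4.34, 4.74 and 5.51 on LFD. In each of these genes both HFD arrays stood far above every LFD array, with fitted log2 fold changes of 6.82, 5.46 and 5.23. Itgad was detected on 1 of 3 LFD arrays and Lipf on 2 of 3, so their folds rest on LFD values near background. Another of the 5 Itgad probes gave -0.14. Its mean level of 4.29 lay below the lowest detected signal of each Cpa3+/+ array (4.33 to 4.42). The remaining Itgad probes gave 4.98, 1.04 and 0.99.

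Further down the list, Ubd, a ubiquitin-like modifier induced by inflammatory signals, was at 11.97 and 12.06 on HFD and 6.22, 8.00 and 7.07 on LFD. Ncan, a proteoglycan best known from brain, was at 8.33 and 8.69 on HFD and 4.38, 4.13 and 4.24 on LFD and was detected on no LFD array, so its rise was at least 17.8-fold (limma, adjusted p = 5.32e-07). Slc5a7, the high-affinity choline transporter, was at 8.93 and 8.83 on HFD and 4.11, 4.12 and 5.79 on LFD and was detected on 1 of 3 LFD arrays. LFD array 3 held the highest LFD value of Slc5a7. Comp, a cartilage matrix protein, was at 8.53 and 8.44 on HFD and 4.42, 4.64 and 4.53 on LFD. Aplnr, the receptor of the peptide apelin, was at 8.09 and 8.46 on HFD and 4.95, 4.75 and 4.99 on LFD. In both genes the LFD arrays lay close together and the call was kept.

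Il7r, the interleukin-7 receptor chain, was at 9.29 and 9.11 on HFD and 5.90, 6.29 and 5.48 on LFD. Another of its 4 probes gave -0.27 at a mean level of 4.42, and the remaining ones 0.54 and 0.92. Lat2, an adaptor of immune receptor signalling, was at 10.63 and 10.17 on HFD and 6.84, 7.23 and 7.29 on LFD. F7, coagulation factor VII, was at 8.23 and 7.58 on HFD and 5.12, 4.42 and 4.32 on LFD and was detected on 1 of 3 LFD arrays. Slc37a1, a sugar-phosphate transporter, was at 8.82 and 8.53 on HFD and 5.60, 5.49 and 5.11 on LFD. These 4 genes and Vsig8 (3.35, SE 0.38, adjusted p = 0.000164) and Adh6b, an alcohol dehydrogenase (3.19, SE 0.34, adjusted p = 8.89e-05), were kept. Saa3, the serum amyloid A of fat and macrophages, was at 10.85 and 11.05 on HFD and 6.62, 8.49 and 6.74 on LFD. Fgf13, an intracellular fibroblast growth factor homologue, was at 11.11 and 11.16 on HFD and 6.11, 7.79 and 8.63 on LFD. Its other probes gave 2.96 and, at a mean level of 4.635, -0.41. Ccn5, a matricellular protein, was at 10.94 and 10.39 on HFD and 6.38, 7.81 and 7.63 on LFD. The LFD arrays spread widely in both Saa3, where LFD array 2 was highest, and Fgf13, where LFD array 3 was. Fgf13, Ccn5 and Lctl (3.98, SE 0.80, adjusted p = 0.0103) lost their calls without either HFD array. Saa3 lost its call without either HFD array, LFD array 1 or LFD array 3. Pvalb, the calcium buffer of fast muscle (3.25, SE 0.87, adjusted p = 0.0471), lost its call with any array left out. The highest adjusted p with an array left out was 0.174 for Saa3 and 0.345 for Pvalb.

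**Figure D2:**
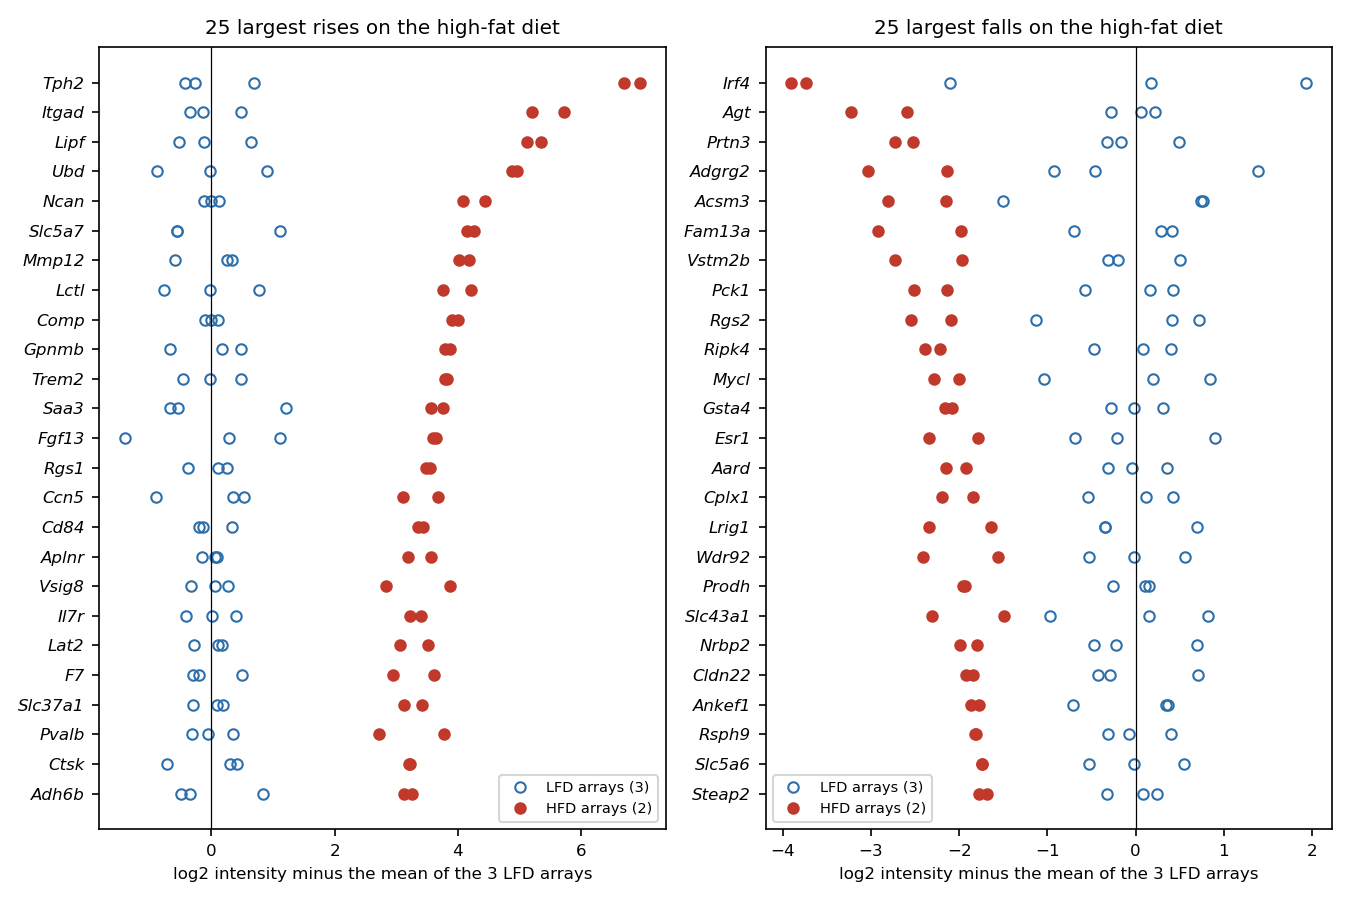
Log2 intensity of each Cpa3+/+ array minus the mean of the 3 LFD arrays (horizontal axes) for the 25 largest rises and the 25 largest falls, with filled red points for HFD and open blue points for LFD arrays. The arrays of the diets do not overlap in any gene shown, and the LFD points of Irf4 spread widely, from log2 intensities of 7.77 to 11.81.

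Many macrophage genes were higher on HFD. Of 21 general macrophage genes, 11 rose and none fell (median log2 fold change 1.11, against -0.02 over all genes). Cd84, a self-binding receptor of myeloid cells, was at 9.67 and 9.60 on HFD and 6.12, 6.58 and 6.04 on LFD. Cd68, a lysosomal glycoprotein of macrophages, was at 11.83 and 11.56 on HFD and 8.95, 9.35 and 8.96 on LFD. Ctss, the cathepsin that trims antigen-presenting molecules, was at 9.51 and 9.26 on HFD and 6.33, 7.06 and 7.07 on LFD, and Mpeg1, a pore-forming protein of phagocytes, at 10.85 and 10.74 on HFD and 8.21, 8.62 and 9.15 on LFD. The HFD arrays lay close to each other in all 4 genes and above every LFD array. The log2 fold changes were 3.39 (SE 0.25), 2.61 (SE 0.40), 2.56 (SE 0.25) and 2.14 (SE 0.21), and all 4 were kept. Another Cd84 probe gave -0.01 at a mean level of 4.28, below the lowest detected signals (4.33 to 4.42), and a further one 0.15. The others that rose were Fcgr4, Tyrobp, Adgre1, Fcgr3, Fcer1g, Laptm5 and Lyz2, between 1.11 (Lyz2) and 1.97 (Fcgr4). Csf1r, the receptor of macrophage colony-stimulating factor, had 0.50, SE 0.19, adjusted p = 0.179, and the efferocytosis receptor gene Mertk -0.78, SE 0.43, adjusted p = 0.385. In this list 8 genes passed without HFD array 1, 8 without HFD array 2 and 12 without LFD array 3.

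Of 18 genes of lipid-associated macrophages, the cells that ingest adipocyte lipid, 8 rose and none fell (median 1.35). Trem2, their lipid-sensing receptor, was at 11.23 and 11.26 on HFD and 6.97, 7.92 and 7.41 on LFD. Gpnmb, a lysosomal glycoprotein, was at 13.69 and 13.60 on HFD and 9.15, 9.99 and 10.30 on LFD. Mmp12, the macrophage elastase, was at 10.47 and 10.29 on HFD and 5.70, 6.61 and 6.53 on LFD, and Ctsk, a collagen-cutting cathepsin, at 12.09 and 12.06 on HFD and 8.15, 9.16 and 9.27 on LFD. LFD array 1 was the lowest of the 5 arrays in each of these genes. The fitted changes were 3.81 (SE 0.33), 3.83 (SE 0.43), 4.10 (SE 0.51) and 3.21 (SE 0.42), and all 4 were kept. Fabp5, Nceh1, Itgax and Plin2 also rose. Lpl, whose lipase releases fatty acids from lipoproteins, had 0.01, and Apoe, an apolipoprotein of the same cells, -0.64, neither past the threshold. In all, 16 of the 18 members lay above 0, and 6 passed without either HFD array and 10 without LFD array 3.

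Of 15 genes of resident and alternatively activated macrophages, none passed in either direction by limma (median 0.00), and the smallest p belonged to Retnla, a secreted resistin-like protein, at 12.63 and 12.16 on HFD and 13.35, 13.11 and 13.13 on LFD (-0.80, SE 0.28, adjusted p = 0.138), and to Gas6, a bridging ligand for apoptotic cells (-0.58, SE 0.23, adjusted p = 0.208). Retnla was lower on both HFD arrays than on all LFD arrays, as were 15.9% of all genes. In this list 4 members lay below and 3 above in that way. None of the 15 passed with any of the 5 arrays left out, and 2 had an unadjusted p below 0.05.

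Lysosomal genes rose in 10 of 27 cases and none fell (median 0.57, 26 members above 0). Gusb, beta-glucuronidase, was at 11.98 and 11.99 on HFD and 10.45, 10.52 and 10.45 on LFD. Ctsa, a protective protease of the lysosome, was at 12.71 and 12.58 on HFD and 11.15, 11.10 and 11.52 on LFD. Glb1, beta-galactosidase, was at 9.41 and 9.54 on HFD and 7.08, 7.20 and 7.93 on LFD, and Ctsz, a carboxypeptidase, at 10.30 and 10.08 on HFD and 8.66, 9.22 and 8.88 on LFD. The arrays of each diet nearly coincided in Gusb. Gusb (1.51, SE 0.17, limma adjusted p = 0.000164) and Ctsa (1.39, SE 0.21, limma adjusted p = 0.00129) were kept. Another Ctsa probe gave -0.26 at a mean level of 4.53, and the remaining ones 0.30 to 0.95. Glb1 and Ctsz lost their calls without either HFD array. Hexa, Man2b1, Grn, Psap and the proton pump subunit genes Atp6v1a and Atp6v1b2 rose by less than 1 log2 unit. Of the 10, 2 passed without HFD array 1 and 3 without HFD array 2.

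The CLEAR element, TCACGTGA, is the known recognition sequence of the factor TFEB in lysosomal genes. It was searched on both strands, which read alike, in 300 bases around each RefSeq start site (250 before and 50 after, GRCm38.p6). Of 23 lysosomal genes with a promoter there, 6 held it, and of 27025 genes with promoters given there 1.12%. Among the genes that rose, Ctsa and Atp6v1a held it, and Gusb and Glb1 did not. The promoter of Ctsa is shown because it holds the element 2 times around the start, with CLEAR in capitals (chr2:164833523-164833822, plus strand).
Ctsa: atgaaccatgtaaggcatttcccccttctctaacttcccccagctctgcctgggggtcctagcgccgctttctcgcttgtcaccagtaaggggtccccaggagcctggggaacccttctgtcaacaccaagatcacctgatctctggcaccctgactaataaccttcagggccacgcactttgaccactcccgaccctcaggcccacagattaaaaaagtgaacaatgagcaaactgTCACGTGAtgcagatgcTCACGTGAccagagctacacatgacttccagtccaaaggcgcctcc
A match describes these letters only, and no binding was measured.

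Antigen presentation genes were next. Of 10 MHC class II genes 3 rose and none fell (median 0.82). H2-DMb1, a chain of the peptide-loading chaperone H2-DM, was at 10.64 and 10.36 on HFD and 7.60, 8.44 and 9.03 on LFD, and its near-identical neighbour H2-DMb2 at 10.71 and 10.53 on HFD and 7.89, 8.70 and 9.27 on LFD, so probes may not separate the pair. A second H2-DMb2 probe gave -0.35. H2-Eb1, a class II chain, was at 12.68 and 12.51 on HFD and 11.56, 11.94 and 11.90 on LFD. LFD array 1 was lowest in all 3, and the arrays of the diets did not overlap. H2-DMb1 lost its call without HFD array 1 (adjusted p 0.0569), H2-DMb2 without either HFD array, and H2-Eb1 without either HFD array or LFD array 1. In fits that lacked HFD array 1 or HFD array 2 the list had 0 and 1 calls.

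Inflammatory ligands and receptors had few calls. Of 17 genes of the interleukin-1, TNF and IL-6 families 2 rose (median 0.03): Il1rn, the natural blocker of the interleukin-1 receptor, at 7.38 and 7.15 on HFD and 4.19, 4.62 and 4.82 on LFD, and Casp1, the protease that matures interleukin-1 beta, at 10.51 and 10.80 on HFD and 8.98, 9.38 and 8.85 on LFD. Both were kept (2.72, SE 0.27, limma adjusted p = 4.65e-05 and 1.58, SE 0.25, limma adjusted p = 0.00169). Another Il1rn probe gave -0.02 at a mean level of 4.24, below the lowest detected signals (4.33 to 4.42), and a further one 1.57. Among 21 chemokines 2 rose (median 0.39), Ccl3 (1.16, SE 0.28, adjusted p = 0.0276) and Ccl9, at 12.92 and 12.87 on HFD and 11.85, 12.22 and 11.85 on LFD. Ccl3 was detected on 1 of 3 LFD arrays, and it lost its call without either HFD array, LFD array 1 or LFD array 2. Ccl9 lost its call without either HFD array or LFD array 1. None of 11 chemokine receptors passed by limma, 2 had an unadjusted p below 0.05, and 1 passed without LFD array 2. Their smallest p were those of Ackr1, a chemokine-scavenging receptor (1.17, SE 0.32, adjusted p = 0.0554), and Cxcr4 (1.00, SE 0.33, adjusted p = 0.107). Of 18 interferon-stimulated and immunoproteasome genes only Ubd rose (median 0.18), with Psmb10 (0.75, SE 0.26, adjusted p = 0.14) and Rsad2 (1.27, SE 0.67, adjusted p = 0.361) next by p.

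Complement genes were split. C2, a protease of the classical pathway, fell and was kept, at 10.33 and 10.22 on HFD and 11.92, 11.74 and 11.56 on LFD (-1.46, SE 0.20, adjusted p = 0.000594). Serping1, the C1 inhibitor, rose at 13.28 and 13.17 on HFD and 12.41, 12.37 and 12.69 on LFD (0.74, SE 0.16, adjusted p = 0.0176) and lost its call without either HFD array, LFD array 1 or LFD array 2. The other 11 did not pass (median of the 13 genes 0.33).

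Cell division genes were higher on HFD. Of 18 mitosis genes 10 rose and none fell (median 1.18). Cdk1, the kinase that drives entry into mitosis, was at 7.11 and 7.27 on HFD and 4.51, 4.21 and 5.04 on LFD and, like Plk1 and Tk1, was detected on 2 of 3 LFD arrays. Birc5, a subunit of the chromosomal passenger complex, was at 7.42 and 7.38 on HFD and 4.85, 5.58 and 5.27 on LFD. Prc1, which bundles spindle microtubules, was at 8.08 and 7.97 on HFD and 5.52, 6.31 and 6.09 on LFD, and Plk1, a mitotic kinase, at 6.67 and 6.91 on HFD and 4.58, 4.61 and 5.04 on LFD. Each had both HFD arrays above the highest LFD array, with changes of 2.60 (SE 0.31), 2.17 (SE 0.23), 2.05 (SE 0.28) and 2.05 (SE 0.23), and all 4 were kept. Cdca8, Mki67, Top2a, Aurkb, Cdc20 and Aurka rose too. Ube2c (-0.06) and Ttk (-0.05) lay near 0 and were detected on no HFD array and on 1 LFD array. Of the list, 7 passed without either HFD array, 10 without LFD array 3 and 3 with only the 5 Cpa3+/+ arrays in the fit.

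The CHR element, TTTGAA, and the CCAAT box, CCAAT, are known in promoters that switch on late in the cell cycle. On both strands of the same 300 bases, CHR was found in 13 of 15 mitosis genes with a promoter and CCAAT in 13 of 15, against 20.2% and 41.1% of all genes in the table. Of the 9 genes that rose and had a promoter, 8 held both, and Birc5 held neither. The promoters of Cdk1, Prc1 and Plk1, all named above, are shown with both elements in capitals. Those of Cdk1 (chr10:69352863-69353162, minus strand), Prc1 (chr7:80294201-80294500, plus strand) and Plk1 (chr7:122159185-122159484, plus strand) are written 5′ to 3′ along the gene.
Cdk1: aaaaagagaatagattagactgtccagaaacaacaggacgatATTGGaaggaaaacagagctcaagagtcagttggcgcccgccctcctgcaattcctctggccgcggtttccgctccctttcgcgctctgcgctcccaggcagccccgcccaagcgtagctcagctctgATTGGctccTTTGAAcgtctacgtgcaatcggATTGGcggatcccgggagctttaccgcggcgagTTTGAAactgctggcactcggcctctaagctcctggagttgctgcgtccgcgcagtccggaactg
Prc1: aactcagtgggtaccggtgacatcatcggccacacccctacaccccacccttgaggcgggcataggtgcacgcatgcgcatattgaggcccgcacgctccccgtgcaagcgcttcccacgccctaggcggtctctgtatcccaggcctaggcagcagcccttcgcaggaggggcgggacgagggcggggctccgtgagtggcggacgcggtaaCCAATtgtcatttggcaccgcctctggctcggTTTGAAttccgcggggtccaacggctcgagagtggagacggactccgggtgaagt
Plk1: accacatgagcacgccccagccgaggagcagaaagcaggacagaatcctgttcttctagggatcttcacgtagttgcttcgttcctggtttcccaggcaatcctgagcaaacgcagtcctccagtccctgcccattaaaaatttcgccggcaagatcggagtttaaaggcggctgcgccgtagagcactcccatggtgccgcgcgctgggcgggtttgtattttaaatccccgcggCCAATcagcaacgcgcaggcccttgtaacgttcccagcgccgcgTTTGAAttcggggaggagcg
In Cdk1 the CHR matches begin 71 and 15 bases before the start site, and in Prc1 and Plk1 there is 1 each. The CCAAT box lies in reverse orientation, as ATTGG, 3 times in Cdk1 and 1 time as written in Prc1 and Plk1.

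Of 20 DNA replication genes 5 rose and none fell (median 0.51). Tk1, thymidine kinase, was at 6.92 and 7.20 on HFD and 4.60, 4.40 and 5.15 on LFD. Another Tk1 probe gave -0.18 at a mean level of 4.26, below the lowest detected signals (4.33 to 4.42), and a further one 1.09. Mcm5, a subunit of the replicative helicase, was at 7.97 and 7.87 on HFD and 6.31, 6.74 and 6.96 on LFD. Cdt1, which loads that helicase, was at 7.23 and 7.53 on HFD and 6.02, 6.18 and 6.33 on LFD, and Uhrf1, which copies DNA methylation, at 6.96 and 6.80 on HFD and 5.50, 4.73 and 6.32 on LFD. LFD array 3 came nearest to the HFD arrays in each of the 4. Tk1 was kept (2.34, SE 0.29, adjusted p = 0.000306). Mcm5 lost its call without either HFD array, Uhrf1 without either HFD array, LFD array 1 or LFD array 2, and Cdt1 without HFD array 2. The flap endonuclease gene Fen1 also rose (1.11, SE 0.19, adjusted p = 0.0036) and lost its call without HFD array 1. Mcm7, another helicase subunit, had -0.90, SE 0.29, adjusted p = 0.103. Without LFD array 3, 7 members were higher and 1 lower. The E2F element, searched as TTTCCCGC, TTTCGCGC or TTTGGCGC on both strands, was found in 8 of 17 of these genes with a promoter and in 2.12% of all genes. Mcm5 is shown as a gene that rose and holds overlapping matches, in capitals (chr8:75109259-75109558, plus strand).
Mcm5: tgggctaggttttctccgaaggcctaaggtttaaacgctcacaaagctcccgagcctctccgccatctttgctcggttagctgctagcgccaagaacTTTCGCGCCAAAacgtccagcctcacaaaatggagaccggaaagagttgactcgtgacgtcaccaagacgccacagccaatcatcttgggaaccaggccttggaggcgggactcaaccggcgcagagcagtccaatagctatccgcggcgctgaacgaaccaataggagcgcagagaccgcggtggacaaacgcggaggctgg
Among 13 cell cycle inhibitors and p53 targets 1 rose and 1 fell (median 0.28). Cdkn2b, an inhibitor of Cdk4 and Cdk6, was at 7.98 and 8.10 on HFD and 6.68, 7.02 and 6.63 on LFD, and Sesn2, a stress-induced regulator of growth signalling, at 6.73 and 6.02 on HFD and 8.05, 7.89 and 7.35 on LFD. They moved in opposite directions (1.26, SE 0.22, adjusted p = 0.00379 and -1.38, SE 0.36, adjusted p = 0.0401), and Cdkn2b lost its call without HFD array 2 and Sesn2 without either HFD array, LFD array 1 or LFD array 2.

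Matrix genes were mostly above 0. All 17 collagen chain genes had a log2 fold change above 0 (median 0.89) and 2 passed. Col5a2, a chain of fibril-initiating collagen V, was at 6.86 and 6.84 on HFD and 5.77, 5.00 and 5.26 on LFD, and Col6a3, of the collagen VI meshwork around adipocytes, at 11.86 and 11.65 on HFD and 10.41, 10.21 and 11.04 on LFD. Col5a2 lost its call without either HFD array, LFD array 2 or LFD array 3, and Col6a3 without either HFD array, LFD array 1 or LFD array 2. Among 13 collagen-modifying genes 4 rose (median 0.54): the crosslinking oxidase gene Lox at 10.50 and 10.58 on HFD and 9.27, 9.35 and 9.31 on LFD, the proteinase enhancer gene Pcolce at 9.99 and 10.05 on HFD and 8.30, 8.78 and 9.33 on LFD, the collagen chaperone gene Serpinh1 at 13.14 and 13.28 on HFD and 12.45, 12.50 and 12.51 on LFD and the procollagen proteinase gene Bmp1 at 9.50 and 9.43 on HFD and 8.87, 8.71 and 8.88 on LFD. The arrays of each diet nearly coincided in Lox, and it lost its call with any array left out. Pcolce, Serpinh1 and Bmp1 lost theirs without either HFD array, LFD array 1 or LFD array 2. No collagen chain and no collagen-modifying gene passed when HFD array 1 or HFD array 2 was left out.

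Besides Comp and Ncan, 2 of the 20 matricellular and proteoglycan genes rose (median 0.58): Lum, a collagen-binding proteoglycan, at 11.12 and 11.06 on HFD and 8.73, 9.15 and 9.83 on LFD, and Bgn, biglycan, at 12.93 and 12.81 on HFD and 11.39, 11.44 and 11.89 on LFD. Lum lost its call without either HFD array, and Bgn without either HFD array, LFD array 1 or LFD array 2. Matrix proteases and their inhibitors had 6 rises and 1 fall among 17 (median 0.87). Adam8, a myeloid metalloprotease, was at 7.45 and 7.55 on HFD and 5.23, 4.83 and 5.31 on LFD and was kept. Mmp3, stromelysin, was at 7.24 and 8.65 on HFD and 4.77, 6.26 and 5.35 on LFD, with HFD array 2 well above HFD array 1, and lost its call without HFD array 2 or LFD array 1. Mmp11 (1.89, SE 0.38, adjusted p = 0.0107) and Adam12 (1.83, SE 0.37, adjusted p = 0.0104) lost theirs without either HFD array. Mmp13 (1.39, SE 0.20, adjusted p = 0.000956), which was kept, and Mmp23 (0.89, SE 0.20, adjusted p = 0.0217), which lost its call without either HFD array, LFD array 1 or LFD array 3, were the other rises. The fall was that of Timp4, an inhibitor made by adipocytes (-1.24, SE 0.33, adjusted p = 0.048). Timp1, an inhibitor of the same family, had 2.19, SE 0.61, adjusted p = 0.058 and did not pass with all arrays. It passed without LFD array 3 (2.715, limma adjusted p = 0.0181). Timp4 lost its call with any array left out, under median scaling and with only the 5 Cpa3+/+ arrays.

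**Figure D3:**
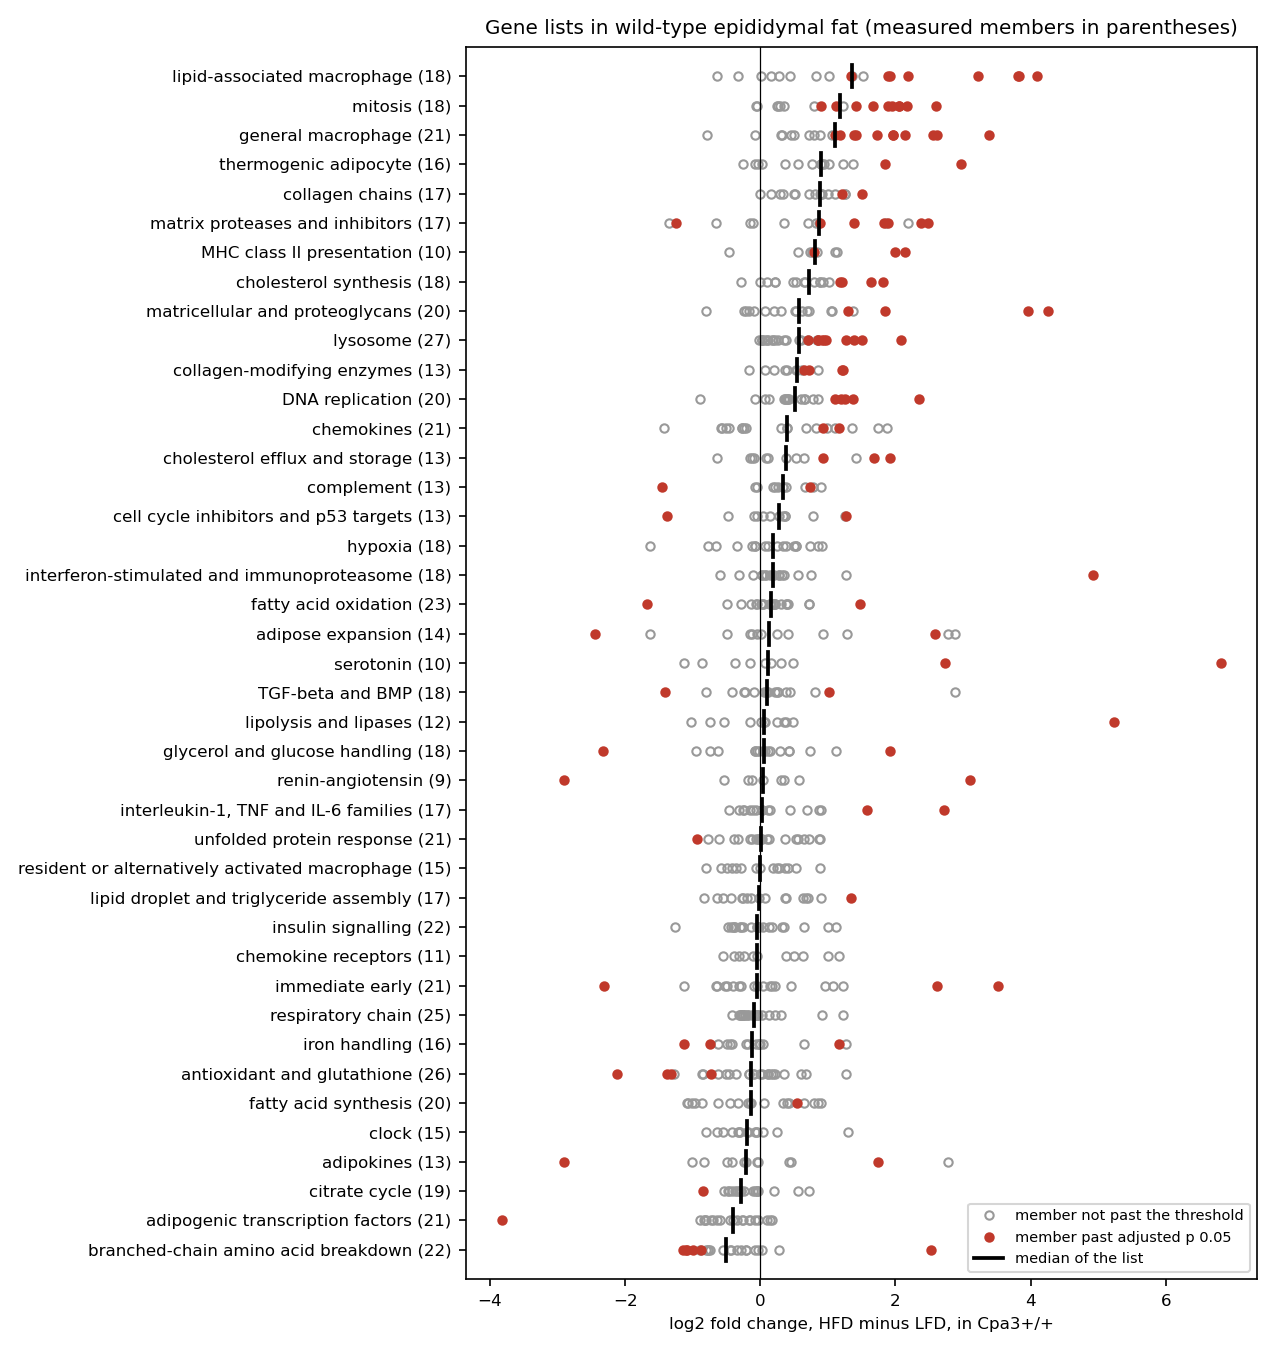
Log2 fold change of every measured member (horizontal axis) of the 41 gene lists, ordered by median, with red points for members past adjusted p 0.05 and black bars for medians. Lipid-associated macrophage, mitosis and general macrophage lists stand at the top with medians of 1.35, 1.18 and 1.11, and branched-chain amino acid breakdown at the bottom with -0.50.

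Lipid genes were read by pathway. Of 18 cholesterol synthesis genes 4 rose and none fell (median 0.73). Dhcr7, the last reductase of the pathway, was at 7.12 and 7.15 on HFD and 5.68, 5.06 and 5.22 on LFD, and Lss, lanosterol synthase, at 8.62 and 8.52 on HFD and 7.42, 6.55 and 6.82 on LFD. Sc5d, a desaturase of the late pathway, was at 7.71 and 7.37 on HFD and 6.23, 6.38 and 6.39 on LFD, and Mvk, mevalonate kinase, at 7.36 and 7.79 on HFD and 6.30, 7.07 and 5.83 on LFD. The arrays of the diets were separate in each, most narrowly in Mvk. None of the 4 passed without HFD array 1 or without HFD array 2, and 5 members passed without LFD array 3. Mvk also lost its call without LFD array 1 or LFD array 3, and Sc5d with any array left out. The sterol regulatory element, searched as TCACNCCAC on both strands, was in none of the 15 of these genes with a promoter and in 1.44% of all genes. With so low a share, no match among 15 genes cannot be told from that of all genes. Of 13 efflux and storage genes 3 rose (median 0.38), namely the cholesteryl ester hydrolase gene Nceh1 at 11.04 and 10.66 on HFD and 8.92, 8.38 and 9.49 on LFD, the phospholipid transfer gene Pltp at 10.43 and 10.18 on HFD and 8.08, 8.77 and 9.01 on LFD and Apoc2, an activator of lipoprotein lipase, at 7.02 and 6.54 on HFD and 5.73, 6.15 and 5.70 on LFD. Nceh1 lost its call without either HFD array, Pltp without either HFD array or LFD array 1, and Apoc2 without either HFD array, LFD array 1 or LFD array 3. The median of the list was 0.07 without LFD array 3.

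Among 20 fatty acid synthesis genes 1 rose (median -0.14), the elongase gene Elovl1 (0.54, SE 0.14, adjusted p = 0.0457), with Tkt (-0.86, SE 0.26, adjusted p = 0.0797) and Aacs (-0.62, SE 0.19, adjusted p = 0.084) next by p. Elovl1 lost its call without either HFD array, LFD array 1 or LFD array 3, and without LFD array 3 there were 2 falls and a median of 0.13. Of 23 oxidation genes 1 rose and 1 fell (median 0.16). Cpt1b, the muscle-type carnitine palmitoyltransferase, was at 6.48 and 6.79 on HFD and 5.63, 4.87 and 4.98 on LFD, and Eci3, a peroxisomal enoyl-CoA isomerase, at 7.03 and 7.41 on HFD and 8.95, 9.47 and 8.28 on LFD. Cpt1b lost its call without HFD array 2, and Eci3 without either HFD array. Lipid droplet genes had 1 rise in 17 (median -0.02), that of Plin2, the droplet coat of non-adipocytes and macrophages, at 11.21 and 11.26 on HFD and 10.04, 10.06 and 9.56 on LFD (1.35, SE 0.24, adjusted p = 0.00462), which lost its call without either HFD array. Besides Lipf, none of the 12 lipase genes passed, Ces1d (-0.54, SE 0.15, adjusted p = 0.0661) and Lipe, hormone-sensitive lipase (-0.74, SE 0.30, adjusted p = 0.22), among them.

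Acsm3, a medium-chain acyl-CoA synthetase, fell at 6.48 and 5.81 on HFD and 9.39, 9.37 and 7.12 on LFD, with LFD array 3 well below the other LFD arrays. The log2 fold change was -2.48, or -3.23 without LFD array 3. Other Acsm3 probes gave -2.20, -0.75 and 0.37. The call was lost without either HFD array, LFD array 1 or LFD array 2.

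Branched-chain amino acid breakdown is a pathway active in adipocytes. Of 22 of its genes 5 fell and 1 rose (median -0.50), and 19 had a log2 fold change below 0. Ivd, isovaleryl-CoA dehydrogenase, was at 10.65 and 11.03 on HFD and 12.14, 12.14 and 11.65 on LFD. Aldh6a1, which acts late in valine breakdown, was at 10.55 and 10.56 on HFD and 11.92, 11.49 and 11.54 on LFD. Bcat2, the mitochondrial aminotransferase that starts the pathway, was at 10.00 and 10.19 on HFD and 11.48, 11.43 and 10.63 on LFD. Acadsb and Pccb, dehydrogenase and carboxylase genes of the pathway, fell as well (adjusted p = 0.0468 and 0.0163). Bcat1, the cytosolic aminotransferase, went the other way at 8.60 and 9.83 on HFD and 6.46, 6.60 and 7.00 on LFD (2.53, SE 0.57, adjusted p = 0.0191). LFD array 3 was the lowest LFD array in Ivd and Bcat2, and the falls numbered 6 without it. There were no falls without HFD array 1, HFD array 2 or LFD array 1, and 2 without LFD array 2. Under median scaling 2 genes fell, and with only the 5 Cpa3+/+ arrays none did. Bcat1 lost its call without HFD array 2, LFD array 1 or LFD array 2. A second probe of Ivd gave 0.29 and another of Bcat2 gave 0.10, at mean levels of 4.56 and 4.37. Among 19 citrate cycle genes Suclg2 fell (-0.85, SE 0.22, adjusted p = 0.0434), a call lost without either HFD array, LFD array 1 or LFD array 2. The list had a median of -0.28. None of 25 respiratory chain genes passed by limma, 3 had an unadjusted p below 0.05, and 1 passed without LFD array 2 (median -0.09, with Cox8b at 1.23 and Cox7a1 at 0.92 smallest by p).

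Antioxidant and glutathione genes had 4 falls and no rise among 26 (median -0.14). Gsta4, a transferase that clears lipid aldehydes, was at 6.89 and 6.81 on HFD and 8.69, 9.28 and 8.95 on LFD and was kept (-2.12, SE 0.22, adjusted p = 7.66e-05). Gsta3, of the same family, was at 11.91 and 11.39 on HFD and 13.06, 13.27 and 12.74 on LFD. Gpx3, the secreted glutathione peroxidase, was at 12.26 and 12.43 on HFD and 13.87, 13.52 and 13.60 on LFD, and Sod1, cytosolic superoxide dismutase, at 12.44 and 12.52 on HFD and 13.46, 13.19 and 12.98 on LFD. In all 4 both HFD arrays lay below every LFD array, and Gsta3 lost its call without HFD array 2, Gpx3 without either HFD array, and Sod1 without either HFD array, LFD array 1 or LFD array 2. Prodh, proline dehydrogenase, also fell and was kept, at 8.33 and 8.30 on HFD and 10.37, 10.40 and 10.00 on LFD. In the iron list of 16 genes 1 rose and 2 fell (median -0.12). Slc11a1, the phagosomal metal transporter, was at 12.25 and 12.18 on HFD and 11.23, 11.16 and 10.77 on LFD and was kept. Cp, ceruloplasmin (-1.13, SE 0.21, adjusted p = 0.0055), and Aco1, the iron-sensing aconitase (-0.74, SE 0.19, adjusted p = 0.0407), fell. Cp lost its call without HFD array 2 and Aco1 with any array left out. Other Cp probes gave 0.07, -0.45 and -0.40.

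Adipocyte signals moved singly. Lep, leptin, the satiety hormone of fat, rose at 14.12 and 13.96 on HFD and 11.81, 12.19 and 12.90 on LFD (1.74, SE 0.43, adjusted p = 0.0322) and lost its call without either HFD array, LFD array 1 or LFD array 2. Agt, angiotensinogen, the precursor of angiotensin, fell at 8.73 and 8.10 on HFD and 11.38, 11.55 and 11.05 on LFD (-2.91, SE 0.34, adjusted p = 0.000206) and was kept. Adipoq, adiponectin, had -0.21, SE 0.14, adjusted p = 0.474, and the other 10 of the 13 adipokines did not pass either (median -0.21). The list had 2 rises and 1 fall without LFD array 3. Of 9 renin-angiotensin genes, Anpep, an aminopeptidase of angiotensin peptides and a myeloid marker, rose at 9.83 and 9.54 on HFD and 6.68, 6.56 and 6.53 on LFD and was kept. Mest, an imprinted gene whose level tracks fat expansion, rose at 10.70 and 10.53 on HFD and 7.36, 8.04 and 8.70 on LFD. Fam13a, a regulator of fat distribution, fell at 6.58 and 5.65 on HFD and 8.85, 8.98 and 7.87 on LFD. Mest lost its call without HFD array 1 and Fam13a without HFD array 2 (adjusted p 0.0684 and 0.0697). Sfrp5 (2.77, SE 0.82, adjusted p = 0.0741) and Bmp3 (2.87, SE 0.87, adjusted p = 0.0824), chosen here after their values were seen, had larger changes than Mest and did not pass. By limma without LFD array 3, Sfrp5 passed (3.335, adjusted p = 0.0368) and Bmp3 did not (2.961, adjusted p = 0.105).

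Pck1, phosphoenolpyruvate carboxykinase, which makes glycerol for triglyceride in fat, fell at 8.18 and 7.81 on HFD and 10.74, 10.48 and 9.74 on LFD. Pfkp, a phosphofructokinase of glycolysis, rose at 8.84 and 8.82 on HFD and 6.90, 6.85 and 6.99 on LFD and was kept (1.92, SE 0.29, adjusted p = 0.00138). Both belong to a list of 18 glycerol and glucose genes in which no other member passed (median 0.06). Pck1 lost its call without either HFD array. None of 22 insulin signalling genes passed by limma, and 2 had an unadjusted p below 0.05 (median -0.05), with the adaptor genes Irs3 (1.12, SE 0.43, adjusted p = 0.178) and Irs2 (-1.27, SE 0.49, adjusted p = 0.181) smallest by p. In the adipogenic transcription factor list 18 of 21 genes lay below 0 (median -0.41), and 1 fell. It was Irf4, a factor of adipocyte and immune cells, at 5.98 and 6.14 on HFD and 11.81, 10.06 and 7.77 on LFD, with LFD array 3 at 7.77 and LFD array 1 at 11.81. Irf4 lost its call without either HFD array, LFD array 1 or LFD array 2. Its log2 fold change was -3.82, or -4.875 without LFD array 3. Klf4 (-0.82, SE 0.32, adjusted p = 0.196) and Stat5a (-0.64, SE 0.25, adjusted p = 0.194) came next.

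Thermogenic genes had a median of 0.90, and 2 of 16 rose. Otop1, a proton channel of brown fat, was at 8.43 and 8.59 on HFD and 5.36, 5.60 and 5.68 on LFD and was kept (2.97, SE 0.30, adjusted p = 6.12e-05). Kcnk3, a potassium channel of brown adipocytes, was at 7.96 and 8.00 on HFD and 6.97, 5.99 and 5.44 on LFD and lost its call without either HFD array, LFD array 2 or LFD array 3. Ucp1, the uncoupling protein, was at 5.15 and 6.24 on HFD and 4.33, 4.52 and 4.15 on LFD and did not pass (1.37, SE 0.43, adjusted p = 0.0927).

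Among 10 serotonin genes, Tph2 and 1 more rose (median 0.12). Htr2b, a serotonin receptor, was at 7.45 and 7.36 on HFD and 4.69, 4.59 and 4.75 on LFD and was kept (2.73, SE 0.41, adjusted p = 0.00129). By limma Ddc, which completes serotonin synthesis, had -1.13, SE 0.85, adjusted p = 0.551, and the transporter gene Slc6a4 -0.37, SE 0.40, adjusted p = 0.705. Without LFD array 3 the values were -0.07 for Ddc and -0.44 for Slc6a4, so that of Ddc rests on this array. The remaining members did not pass either, except 1 fall without LFD array 3.

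Stress and rhythm genes showed single changes. Of 21 immediate early genes 2 rose and 1 fell (median -0.06). Rgs1, a brake on G protein signals in leukocytes, was at 9.02 and 8.94 on HFD and 5.72, 5.58 and 5.10 on LFD, and Atf3, a stress-induced transcription factor, at 8.76 and 8.40 on HFD and 6.50, 5.83 and 5.57 on LFD. Rgs2, of the same family as Rgs1, was at 5.39 and 4.93 on HFD and 8.19, 7.89 and 6.34 on LFD. Rgs1 and Atf3 were kept, and Rgs2 lost its call without either HFD array, LFD array 1 or LFD array 2. Among 21 unfolded protein response genes Asns, asparagine synthetase, fell (-0.94, SE 0.24, adjusted p = 0.0362) but lost its call with any array left out (median of the list 0.01), and Atf4 had -0.77, SE 0.24, adjusted p = 0.0969. No gene of 18 hypoxia and 15 clock genes passed by limma (medians 0.18 and -0.20), where 6 and 1 had an unadjusted p below 0.05. Without LFD array 2 Car9 was higher, and without LFD array 3 Vegfa was lower (adjusted p = 0.0496); no other hypoxia gene passed with an array left out. Car9 (0.91, SE 0.26, adjusted p = 0.0657) and Vegfa (-1.63, SE 0.53, adjusted p = 0.103), the latter at 8.20 and 8.19 on HFD and 11.30, 9.09 and 9.09 on LFD, were the hypoxia genes of smallest p, and Hlf (-0.55, SE 0.15, adjusted p = 0.0586) and Npas2 (-0.33, SE 0.20, adjusted p = 0.439) the clock genes. Hlf and Npas2 were detected on no HFD array. Of 18 TGF-beta and BMP genes Tgfb1 rose (1.02, SE 0.23, adjusted p = 0.0198) and Acvr1c, a receptor of this family in adipocytes, fell (-1.41, SE 0.29, adjusted p = 0.0109; median 0.10). Tgfb1 lost its call without either HFD array or LFD array 1, and Acvr1c without either HFD array.

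Other large falls were more varied in role. Prtn3, proteinase 3, known from neutrophil granules, was at 5.31 and 5.51 on HFD and 7.72, 8.53 and 7.87 on LFD. Ripk4, a kinase of epithelial differentiation, was at 6.82 and 6.99 on HFD and 9.61, 9.29 and 8.73 on LFD. Aard was at 4.61 and 4.83 on HFD and 6.71, 7.11 and 6.44 on LFD, and Nrbp2, a pseudokinase, at 7.86 and 8.06 on HFD and 10.55, 9.38 and 9.63 on LFD. These 4 were kept (-2.63, -2.30, -2.04 and -1.89 on the log2 scale). Adgrg2, an adhesion receptor known from the epididymis, was at 5.95 and 6.85 on HFD and 8.53, 8.06 and 10.38 on LFD, and Esr1, oestrogen receptor alpha, at 6.02 and 5.47 on HFD and 7.60, 7.13 and 8.72 on LFD. Both stood highest in LFD array 3, the array with the epididymis markers, and without it their log2 fold changes were -1.90 and -1.62 (adjusted p = 0.0446 and 0.0114). Lrig1, a brake on growth factor receptors, was at 8.52 and 7.83 on HFD and 10.86, 9.82 and 9.82 on LFD. Adgrg2 lost its call without either HFD array, and Esr1 and Lrig1 without HFD array 2.

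Mycl, a Myc family factor, was at 7.42 and 7.13 on HFD and 10.27, 9.62 and 8.39 on LFD, Slc43a1, an amino acid transporter, at 7.42 and 8.24 on HFD and 10.55, 9.89 and 8.77 on LFD, and Slc5a6, a vitamin transporter, at 8.19 and 8.20 on HFD and 10.49, 9.91 and 9.40 on LFD. In each LFD array 3 was the lowest LFD array. These 3 and Cplx1 (-2.02, SE 0.48, adjusted p = 0.0253) and Cldn22 (-1.89, SE 0.46, adjusted p = 0.0304) lost their calls without either HFD array, LFD array 1 or LFD array 2. Vstm2b (-2.35, SE 0.51, adjusted p = 0.0157) lost its call without either HFD array or LFD array 1. Rsph9 (-1.81, SE 0.37, adjusted p = 0.0102) and Steap2 (-1.73, SE 0.32, adjusted p = 0.00583) lost theirs without either HFD array, and Wdr92 (-1.99, SE 0.35, adjusted p = 0.00399) without HFD array 1. Ankef1 was detected on no HFD array, a fall of at least 3.08-fold (limma, adjusted p = 0.017). It lost its call without either HFD array, LFD array 1 or LFD array 2.

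Markers of other cells in the fat pad were then read across the 5 arrays, as mean log2 differences from the LFD mean, and their part in the results above was not tested. Of 11 adipocyte markers Lep rose and Acvr1c fell (median -0.15). The 10 mast cell markers had a median of 0.68 with no call, Mcpt4 (0.92, SE 0.26, adjusted p = 0.0571) and Fcer1a (1.00, SE 0.29, adjusted p = 0.0649) having the smallest p, and 2 markers passed without LFD array 1 and 1 without LFD array 2. Endothelial markers were 0.47 and 0.51 above the LFD mean on the HFD arrays with no call among 11, or 1 without LFD array 2 (Vwf 1.63, SE 0.44, adjusted p = 0.0505, Tek 0.75, SE 0.23, adjusted p = 0.0831). Stromal progenitor markers were 0.69 and 0.56 above it, with Lum the only one of 10 past the threshold and Pi16 (1.44, SE 0.51, adjusted p = 0.141) and Cd34 (0.64, SE 0.23, adjusted p = 0.155) not. Mesothelial markers were 0.90 and 0.95 below it, between -0.33 and 0.32 on the LFD arrays, with all 9 below 0 and no call (Upk1b -0.90, SE 0.29, adjusted p = 0.103, Lrrn4 -1.11, SE 0.41, adjusted p = 0.162). At an unadjusted p below 0.05, limma counted 7 of the 10 mast cell, 3 of the 11 endothelial and 2 of the 9 mesothelial markers, against 2979 of 17166 genes. The 9 epididymis and testis markers held no call, and their median log2 fold change was -0.87, or -0.03 without LFD array 3.

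Among blood cells, of 10 neutrophil markers Prtn3 fell (median -0.27), S100a8 had 1.09, SE 0.34, adjusted p = 0.0923 and Retnlg -1.72, SE 0.48, adjusted p = 0.0567, and 1 marker was higher without LFD array 2. No call was made among 6 B cell markers (Cd22 0.97, SE 0.57, adjusted p = 0.417, Fcmr -0.86, SE 0.86, adjusted p = 0.68), 10 T and NK cell markers (Klrb1c -1.31, SE 0.58, adjusted p = 0.259, Cd4 0.44, SE 0.21, adjusted p = 0.286), 2 eosinophil markers (Prg2 0.99, SE 0.36, adjusted p = 0.154, Il5ra 0.44, SE 0.29, adjusted p = 0.481) and 5 red blood cell markers (Klf1 -0.16, SE 0.26, adjusted p = 0.832, Alas2 0.46, SE 0.81, adjusted p = 0.844). Among 7 dendritic cell markers Itgae fell (-1.41, SE 0.32, adjusted p = 0.0207) and lost its call without either HFD array, LFD array 1 or LFD array 2, while Siglech (-0.79, SE 0.40, adjusted p = 0.336) and Batf3 (0.52, SE 0.37, adjusted p = 0.517) did not pass. At an unadjusted p below 0.05 limma counted 0 of the B cell, 2 of the T and NK cell, 1 of the eosinophil and 0 of the red blood cell markers.

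Of tissues beside the fat pad, 1 of 11 skeletal muscle markers rose (Pvalb), and Atp2a1 (-0.82, SE 0.95, adjusted p = 0.73) and Tnni2 (0.58, SE 0.71, adjusted p = 0.748) did not pass. None of 8 smooth muscle markers passed (Acta2 0.50, SE 0.42, adjusted p = 0.608, Lmod1 0.82, SE 0.81, adjusted p = 0.673), and none of 4 neuron and glia markers (Syp 1.37, SE 0.47, adjusted p = 0.124, Gfap 0.31, SE 0.24, adjusted p = 0.552). The unadjusted counts below 0.05 were 0 and 1. Of 6 exocrine pancreas markers Cela1 rose (1.49, SE 0.32, adjusted p = 0.0141) and lost its call without either HFD array, with Reg1 (-0.54, SE 0.22, adjusted p = 0.211) and Cela2a (-0.98, SE 0.55, adjusted p = 0.394) detected on no HFD array.

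**Figure D4:**
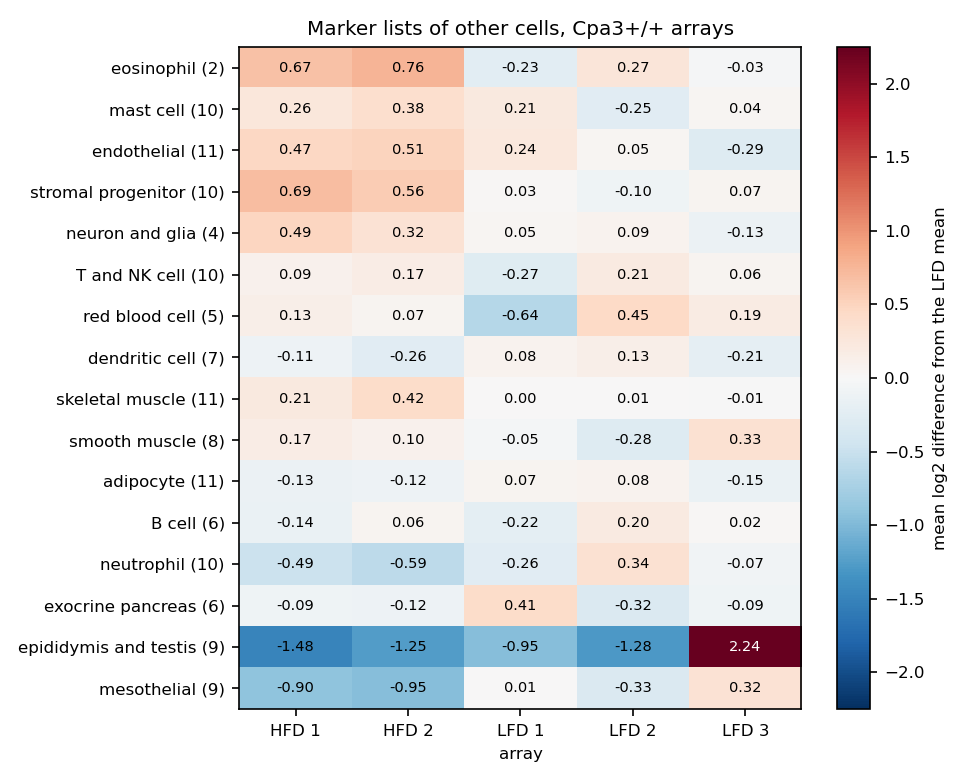
Mean log2 difference of 16 marker lists from the LFD mean (colour and printed value) on each Cpa3+/+ array, with the number of measured markers in parentheses. LFD array 3 is set apart by epididymis and testis markers at 2.24, and both HFD arrays have mesothelial markers about 0.9 below the LFD mean.

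The same genes were then followed in the other genotypes, whose diet comparisons share no array with that of the wild type. In Cpa3Cre/+ mice, without mast cells, 1010 genes (5.88%) were higher and 552 (3.22%) lower on HFD. Of the 590 wild-type rises, 480 were also called higher there, which is 81.4% of the wild-type list and 47.5% of the other. Of the 208 falls, 146 were shared, 70.2% and 26.4% of the lists. The wild-type rises had a median of 1.28 in Cpa3+/+, the contrast that chose them, and 1.44 in Cpa3Cre/+, and the falls -1.09 and -0.96. A direct test of the difference between these diet effects called 0 genes by limma in either direction (0% and 0%), with 686 at an unadjusted p below 0.05 and a smallest adjusted p of 0.563. The 3 genes of smallest p were Oxnad1, Olfr763 and Slc16a1. Olfr763, an odorant receptor gene near background, rose in Cpa3+/+ (0.70, SE 0.19, adjusted p = 0.0493) and was the 1 gene called in opposite directions, at -0.64 in Cpa3Cre/+. Its call in Cpa3+/+ was lost without either HFD array, LFD array 1 or LFD array 2. Oxnad1 had 0.45 and -1.25, and Slc16a1, a lactate transporter, -0.60 and 0.56.

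In KitW/Wv mice 1 gene, Igh-4, was higher (0.00583%) and none lower (0%) by limma. None of the 590 wild-type rises and none of the 208 falls were called there, and their medians were 0.11 and -0.06 in KitW/Wv. The diet effects differed beyond the threshold in 137 genes with a more positive change in Cpa3+/+ (0.798%) and in 15 with a more negative one (0.0874%), and 2030 genes had an unadjusted p below 0.05. Of the 137, 136 were wild-type rises, and 13 of the 15 were falls. This overlap is partly built in, because both tests use the same Cpa3+/+ arrays. The largest positive differences were those of Tph2 (6.42, SE 0.64, adjusted p = 0.000402), Itgad (4.93, SE 0.58, adjusted p = 0.00124), Lipf (4.86, SE 0.62, adjusted p = 0.00233), Comp (4.46, SE 0.54, adjusted p = 0.00143) and Ncan (4.38, SE 0.32, adjusted p = 2.01e-05). On the negative side, Agt (-2.90, SE 0.46, adjusted p = 0.00867), Fam13a (-2.65, SE 0.54, adjusted p = 0.0346), Ripk4 (-2.45, SE 0.46, adjusted p = 0.0222) and Wdr92 (-2.17, SE 0.47, adjusted p = 0.0445) had the largest differences among genes that fell in Cpa3+/+. Igh-4, an immunoglobulin heavy chain gene (-3.73, SE 0.66, adjusted p = 0.0174), did not pass in Cpa3+/+ (-0.32) and had a log2 fold change of 3.40 in KitW/Wv. The general macrophage list held 6 of the positive genes, mitosis 5, and collagen chains none. The count of 152 came to 27 without Cpa3+/+ HFD array 1 and to 194 without LFD array 3.

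**Figure D5:**
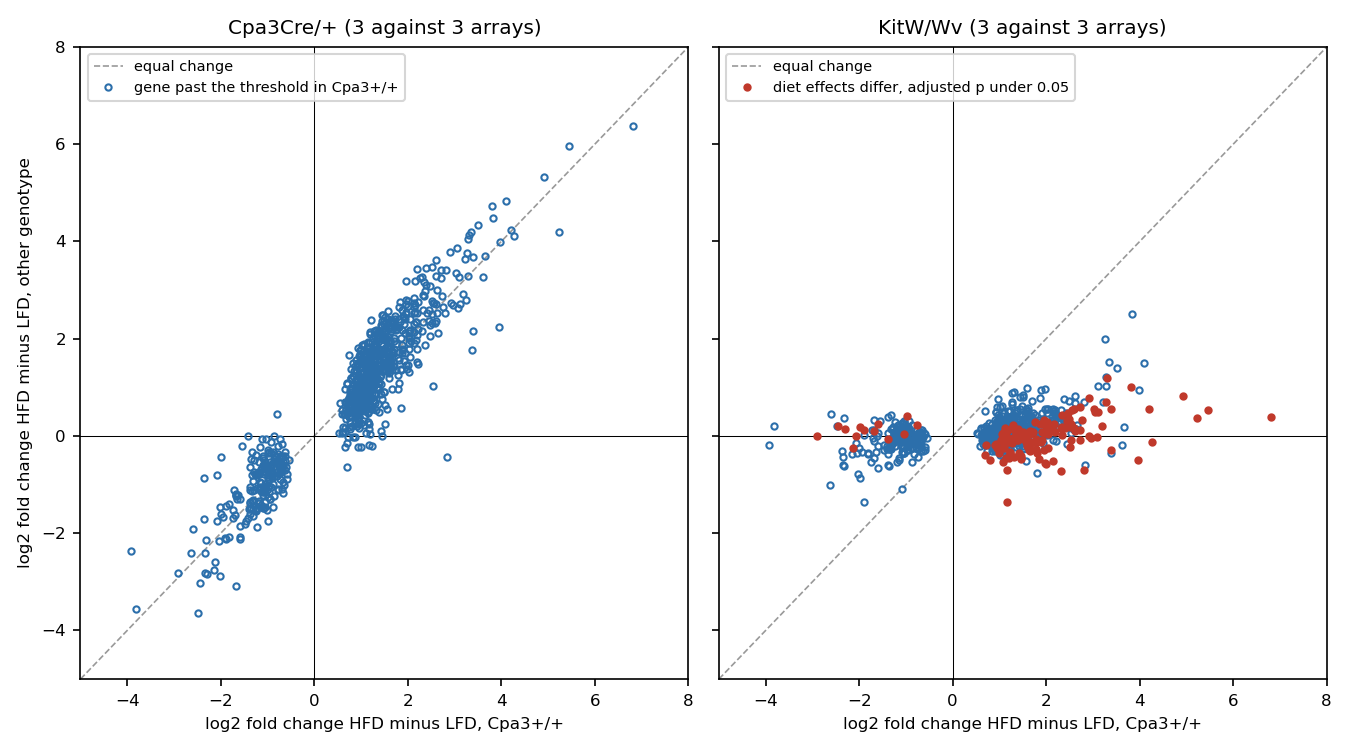
Log2 fold change on the high-fat diet of the 798 genes called in Cpa3+/+ (horizontal axes) against that in Cpa3Cre/+ (left) and KitW/Wv (right). The genes follow the dashed line of equal change in Cpa3Cre/+ (medians 1.28 and 1.44 for the rises) and lie near 0 in KitW/Wv (median 0.11), where red points mark the 149 genes whose diet effects differ.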

How the data were processed

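Total RNA of 17 samples was measured on Illumina bead arrays with 46237 probes. Per the labels' protocols and the submitters' processing notes, the arrays were read in GenomeStudio. The authors deposited a raw intensity and a detection p-value per probe, and a normalized intensity by a method that the sources used here do not give, as they do not for the detection p-value. No column of values was left unmatched to a sample (0).

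From the raw intensities, background was corrected by neqc (normexp from detection p-values, offset 16), followed by quantile normalization and log2 transformation in limma 3.58.1 under R 4.3.3. The detection filter required p below 0.05 on 2 or more of the 17 arrays. Of several probes of a symbol the brightest over all 17 was used, which left 17166 genes. A linear model of 6 group means over all 17 arrays (11 residual and 3.34 prior degrees of freedom) gave log2 fold changes with limma's empirical Bayes test and Benjamini-Hochberg adjustment over all genes, called at 0.05. Chip and hybridisation batch are not in the labels or headers, and were not used here. The precision is limited by the number of arrays, 2 against 3. A bound "at least N-fold" sets the group that detected a gene against the lowest detected signal of each array of the other group. Figures were drawn in matplotlib 3.10.9. Promoters are from RefSeq.

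The members and the 57 lists (956 genes, of which 810 were measured) were chosen with earlier results of these data known. Named were the 25 largest rises and falls without clone names, the 4 largest called members of each list (or the 2 of smallest p where fewer than 2 passed), the 5 largest differences of diet effects in each direction, and Cpa3 and Kit. Other list members were named for their known role or to complete a list, after their values were seen. Alternatives covered normalization, background, filter, probe choice, samples in the fit, array weights, a replicate block and leaving out each array. The other deposited arrays also entered the quantile normalization, the detection filter and the choice of probe, besides the spread and the comparison between genotypes.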

Additional observations from a re-analysis of the deposited data

Results flagged for a closer look

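The diet effect of Cpa3+/+ differed from that of KitW/Wv by limma's interaction test in 137 genes with a more positive and 15 with a more negative change in Cpa3+/+. On the log2 scale the differences were 6.42, SE 0.64, adjusted p = 0.000402 for Tph2, 4.93, SE 0.58, adjusted p = 0.00124 for Itgad, 4.86, SE 0.62, adjusted p = 0.00233 for Lipf, 4.46, SE 0.54, adjusted p = 0.00143 for Comp and 4.38, SE 0.32, adjusted p = 2.01e-05 for Ncan. In the other direction they were -3.73, SE 0.66, adjusted p = 0.0174 for Igh-4, -2.90, SE 0.46, adjusted p = 0.00867 for Agt, -2.65, SE 0.54, adjusted p = 0.0346 for Fam13a, -2.45, SE 0.46, adjusted p = 0.0222 for Ripk4 and -2.17, SE 0.47, adjusted p = 0.0445 for Wdr92. In KitW/Wv the diet changes of Tph2, Itgad, Lipf, Comp and Ncan were 0.40, 0.53, 0.37, -0.50 and -0.12, and those of Igh-4, Agt, Fam13a, Ripk4 and Wdr92 were 3.40, -0.01, 0.20, 0.15 and 0.18.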

How the results depend on the processing

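The counts of 590 higher and 208 lower genes rest on only 2 HFD arrays. They became 118 and 9 when only the 5 Cpa3+/+ arrays entered the fit. That fit has fewer degrees of freedom, and the cause of the drop was not tested. With each array left out they ranged from 198 to 571 and from 31 to 290. Under the other alternatives they stayed within 1.5 times: from 514 to 674 higher, and from 140 to 282 lower. The count of 152 genes whose diet effect differed from KitW/Wv was 89 under median scaling, 268 with array weights and 96 with the replicate block, and 27 to 194 with each array left out; the cause was not tested. The comparison with Cpa3Cre/+ gave 0 genes under every alternative run. Under all 16 settings, 83 rises and 7 falls passed.

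Whether replicate numbers pair the samples could not be told. Deviations of same-numbered arrays from their group means had a median r of 0.072 over 40 pairs, from -0.473 to 0.363. Over 80 pairs of different number it was -0.035, from -0.427 to 0.54. The same-numbered Cpa3+/+ pairs had 0.241 and 0.215, but deviations of the 2 HFD arrays mirror each other, so these values cannot decide. The replicate block gave 514 higher and 222 lower genes. Of 231 genes recomputed one by one, 6 changed sign under an alternative, and none of the 6 had passed: Klf1 at 0.19 without HFD array 1 (from -0.51 to 0.19 with each array left out), Igh-4 at 0.041 without LFD array 2 (from -0.60 to 0.041), Kit at 0.21 without LFD array 3 (from -0.63 to 0.21), Ttk (from -0.12 to 0.059), Ube2c (from -0.19 to 0.14) and Lpl (from -0.031 to 0.036). Lpl, at 0.0080, was also at -0.024 in the authors' normalized intensities, -0.46 with the mean of its probes and -0.013 with the replicate block.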

Other observations

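Beyond the lists, 4 gene families were looked at. They were picked after their values were seen and carry no test. Of 15 H2a histone genes measured, which package newly made DNA, 7 were higher on HFD, none was lower, 14 had a log2 fold change above 0 and the median was 0.74. Their transcripts are near-identical, so a probe may read several of them. The other core histone genes had no calls in either direction, with 12 H2b genes at a median of 0.53 and 21 H3 and H4 genes at 0.21. Of 13 intraflagellar transport genes, which build cilia, Ift88 (-1.07, SE 0.22, adjusted p = 0.0127) and Ift81 (-1.02, SE 0.20, adjusted p = 0.00776) were lower, and the median was -0.38. Ift88 lost its call without either HFD array, and Ift81 without HFD array 1. Rsph9, a radial spoke protein of motile cilia, also fell (-1.81, SE 0.37, adjusted p = 0.0102; call lost without either HFD array), whereas Dnah11, an axonemal dynein, rose (2.76, SE 0.24, adjusted p = 1.87e-05) and was kept.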
